A study of Mus musculus with 12 samples.

Results

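The genes of the mouse Toll-like receptors were followed in splenic and peripheral blood monocytes during the first day of liver regeneration. The 10 genes were taken by their symbols from 52553 gene features, 5 for receptors of the cell surface (Tlr1, Tlr2, Tlr4, Tlr5, Tlr6) and 5 for receptors of endosomes (Tlr3, Tlr7, Tlr8, Tlr9, Tlr13). All 10 passed the filter on low counts and were among the 20135 features tested. Male C57BL/6 mice were either intact (no removal of spleen or liver) or had 70% of the liver resected 24 h before the cells were collected. The sample titles do not say whether intact mice had a sham operation. Where they had none, effects of surgery, anesthesia and analgesia cannot be told apart from those of liver resection. CD115+ cells, which carry the receptor encoded by Csf1r, were isolated with magnetic beads from mononuclear fractions of spleen and blood, with cells of 5 mice pooled for each library. There were 3 RNA libraries in each of 4 groups, intact spleen, spleen after resection, intact blood and blood after resection. No group carried a transgene or deletion by the labels. Beads against 1 surface protein were the last purification step, after density centrifugation.

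Toll-like receptors are sensors of the innate immune system that recognize conserved molecules of microbes and of damaged cells. The surface receptors bind mainly bacterial lipopeptides, lipopolysaccharide and flagellin, while the endosomal receptors bind nucleic acids once a cell has taken them up. Nearly all of them signal through the adaptor MyD88, or in the case of TLR3 through TRIF, toward NF-kB, AP-1 and interferon regulatory factors, and monocytes use them to start cytokine production.

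Library totals ran from 36990033 to 46401368 estimated counts. Levels are given as CPM, the counts scaled to the size of each library after TMM scaling, a correction for differences in library composition. Hemoglobin genes made up 0.0814% to 3.47% of the counts in splenic and 13.2% to 34.2% in blood libraries. All 14 monocyte markers examined, Csf1r among them, were detected in every group, with summed levels of 3846 to 13311 CPM. In intact spleen they summed to 4623 to 4921 CPM, beside 6594 to 7547 CPM for 12 B-cell markers. In blood after resection they summed to 10107 to 13311 CPM, beside 22903 to 33169 CPM for 10 peritoneal macrophage markers. Such sums run over different genes without correction for length, and single genes weigh heavily in them, so they give no proportions of cells. In blood after resection the monocyte marker Lyz2 alone stood at 5543 to 9043 CPM. Gata6, of the peritoneal macrophage list, stood at 17.7 to 23.7 CPM there. The libraries thus held marker RNA of other cells as well, and the word monocytes here names the CD115+ fractions. Intact blood library 3 stood apart from the other two of its group, with a chi-square per degree of freedom of 599 and 455 over all genes against 61.7 between the other pair. Its monocyte markers summed to 3846 CPM beside 10222 and 7646 CPM, and its T-cell markers to 2357 CPM beside 896 and 869 CPM. All 10 receptor genes, and the related Tlr11 and Tlr12, were lowest in this library among the 3 of intact blood, so values without it are given where they change a call or move a value clearly. RNA was measured in bulk, and fewer cells of a type cannot be told apart from less RNA per cell.

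In the annotation of mouse build GRCm38, Tlr1 (chromosome 5, 64924679 to 64933563, minus strand) and Tlr6 (chromosome 5, 64952031 to 64960097, minus strand) are neighbors, as are Tlr8 (chromosome X, 167242696 to 167264329, minus strand) and Tlr7 (chromosome X, 167304929 to 167330558, minus strand). Tlr2 lies on chromosome 3 (83836272 to 83841767, minus strand), Tlr4 on chromosome 4 (66827584 to 66930284, plus strand) and Tlr5 on chromosome 1 (182954788 to 182976044, plus strand). Tlr3 lies on chromosome 8 (45395665 to 45411080, minus strand), Tlr9 on chromosome 9 (106222598 to 106226883, plus strand) and Tlr13 on chromosome X (106143204 to 106160493, plus strand). The estimated counts of Tlr1 and Tlr6 were fractional in 12 of 12 libraries and their sum was whole in 12 of 12 (tolerance 0.0055), so these paralogs shared reads and their single values are uncertain. The counts of Tlr4 added up to whole numbers only together with 1 RefSeq accession without a gene name, which held 9.21% to 29.2% of that sum. The other 7 receptor genes had whole counts in every library.

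RefSeq start-site sequence (build GRCm38.p6) was at hand for 8 of the 10 genes, in 10 windows of 250 bases before a start. The windows of Tlr2 and Tlr13, the genes with the largest increases after resection in blood, and of Tlr9, the only member with a negative value there, are shown 5′ to 3′ on the gene's strand without the bases that fall inside an annotated transcript. Capitals mark matches to an NF-kB consensus (Tlr2), to GAGGAAG, a PU.1/ETS core (Tlr13 and Tlr9), and to TGANTCA, the AP-1 motif (Tlr9, downstream of the first match).
Tlr2, chr3:83841768-83841858, minus strand: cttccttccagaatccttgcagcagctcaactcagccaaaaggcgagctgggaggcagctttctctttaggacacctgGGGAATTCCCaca
Tlr13, chrX:106143025-106143203, plus strand: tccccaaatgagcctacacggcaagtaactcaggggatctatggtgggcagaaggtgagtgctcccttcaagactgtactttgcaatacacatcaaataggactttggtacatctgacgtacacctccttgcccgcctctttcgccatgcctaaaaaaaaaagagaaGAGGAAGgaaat
Tlr9, chr9:106222348-106222597, plus strand: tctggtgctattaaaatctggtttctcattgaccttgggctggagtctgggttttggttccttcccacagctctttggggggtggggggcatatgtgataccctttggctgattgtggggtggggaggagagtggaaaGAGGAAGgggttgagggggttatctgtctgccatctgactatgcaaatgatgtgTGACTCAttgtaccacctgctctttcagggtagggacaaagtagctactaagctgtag

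Relative to the RefSeq start, the Tlr2 match spans positions -172 to -163, the Tlr13 match -83 to -77, and the Tlr9 matches -112 to -106 and -58 to -52. On either strand GAGGAAG occurred in 3 of the 8 genes (Tlr1, Tlr9, Tlr13) and in 10.6% of 32851 windows of the same length over all genes. The NF-kB consensus occurred in 2 (Tlr2, Tlr3) and in 5.0% of all windows, and TGANTCA in 1 (Tlr9) and in 6.75%. The C/EBP motif TTGCNNAA occurred in 3 (Tlr3, Tlr6, Tlr8) and in 9.56%, and the interferon-stimulated response element (ISRE) in 1 (Tlr6, as 2 overlapping matches) and in 2.98%. These motifs were chosen after the sequences had been seen, and a match describes letters and not a bound site.

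The first comparison asked how liver resection changed the receptor genes in peripheral blood monocytes. Tlr2 and Tlr13 rose most, by 6.72-fold and 6.87-fold, and Tlr6 and Tlr4 rose by 2.96-fold and 2.42-fold. A gene was called when edgeR's quasi-likelihood test gave a Benjamini-Hochberg adjusted p-value under 0.05 over all features and the absolute log2 fold change was above 1. By this rule 4 of the 10 receptor genes were called, all higher after resection, while 13.9% of all features were called and 7.8% were called higher. The log2 fold change was positive for 9 of 10 receptor genes and for 45.2% of all features. Its median was 1.01 over the receptor genes, 1.27 over the surface and 0.94 over the endosomal ones, beside -0.10 over all features. DESeq2 called 5 of 10, the same genes with Tlr3, beside 18.4% of all features, and without intact blood library 3 edgeR called 3, beside 12.2%.

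Among the surface receptors, Tlr2, which with TLR1 or TLR6 recognizes bacterial lipopeptides, stood at 78.2, 66.4 and 32.8 CPM in intact blood and at 274, 423 and 494 CPM after resection. The lowest library after resection was thus above the highest intact library. The log2 fold change was 2.75 (SE 0.37, edgeR adjusted p = 0.00168), and 2.45 without intact blood library 3 (adjusted p = 0.00281). Tlr4, the lipopolysaccharide receptor, stood at 19.2, 19.9 and 15.4 CPM in intact blood and at 38.5, 36.99 and 56.2 CPM after resection. The groups again did not overlap, and the 3 intact libraries lay close together. Its log2 fold change was 1.27 (SE 0.20, edgeR adjusted p = 0.00299), 1.16 without intact library 3, and 1.43 when the accession that shares its reads was added to it.

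Tlr6, a partner of TLR2 for diacylated lipopeptides, measured 19.2, 21.5 and 9.76 CPM in intact blood and 36.3, 42.2 and 71.1 CPM after resection, without overlap. This gave a log2 fold change of 1.57 (SE 0.40, edgeR adjusted p = 0.0222). The call was lost without intact library 3 (1.28, adjusted p = 0.0509), without resected library 2 (1.66, adjusted p = 0.0501), without resected library 3 (1.24, adjusted p = 0.0924) or with the blood libraries fitted alone (1.57, adjusted p = 0.0563). Tlr1, the partner of TLR2 for triacylated lipopeptides, measured 54.7, 58.2 and 14.99 CPM in intact blood and 56.7, 66.7 and 86.9 CPM after resection, and the groups overlapped. Its log2 fold change of 0.72 (SE 0.40) did not pass the test (edgeR adjusted p = 0.222) and was 0.31 without intact library 3. Because Tlr1 and Tlr6 shared reads they were also summed, which gave a log2 fold change of 1.01 (adjusted p = 0.0793), not called. Tlr5, the flagellin receptor, was low in every library, with 2.67, 2.24 and 1.00 CPM in intact blood and 2.20, 4.04 and 4.02 CPM after resection (log2 fold change 0.80, SE 0.40, edgeR adjusted p = 0.185, and 0.47 without intact library 3).

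Among the endosomal receptors, Tlr13, the mouse sensor of bacterial ribosomal RNA, stood at 63.2, 54.5 and 23.7 CPM in intact blood and at 212, 325 and 436 CPM after resection. Each library after resection was above each intact one. The log2 fold change was 2.78 (SE 0.54, edgeR adjusted p = 0.00709), and 2.45 without intact library 3 (adjusted p = 0.0171). The other endosomal receptors did not pass the edgeR test. Tlr3, which binds double-stranded RNA, measured 2.37, 2.11 and 1.68 CPM in intact blood and 4.27, 4.76 and 3.997 CPM after resection, a narrow spread in both groups and no overlap, with a log2 fold change of 1.08 (SE 0.38, edgeR adjusted p = 0.0712). It was called higher with DESeq2 (1.104, adjusted p = 0.0225), and with edgeR when at least 10 counts were required in every library (adjusted p = 0.0446) or without spleen library 3 after resection (adjusted p = 0.0185).

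Tlr7, a sensor of single-stranded RNA, measured 41.8, 43.6 and 15.7 CPM in intact blood and 48.5, 65.0 and 80.8 CPM after resection (log2 fold change 0.94, SE 0.41, edgeR adjusted p = 0.124, and 0.60 without intact library 3). The groups did not overlap, but the distance between them was small beside that of intact library 3 from its group. Tlr8, its neighbor on chromosome X, measured 41.6, 34.9 and 14.96 CPM and then 37.01, 44.4 and 65.5 CPM (log2 fold change 0.69, SE 0.43, edgeR adjusted p = 0.284, and 0.35 without intact library 3), with overlap. Tlr9, the receptor for unmethylated CpG DNA, was the exception in sign, at 36.99, 46.1 and 13.7 CPM in intact blood and 27.5, 19.0 and 25.8 CPM after resection. The log2 fold change of -0.42 (SE 0.47, edgeR adjusted p = 0.565) was smaller than its standard error, and was -0.79 without intact library 3 (adjusted p = 0.196). In all, the libraries of both states did not overlap for 6 of 10 receptor genes, all higher after resection, beside 19.4% of all features higher without overlap and 38.4% in either direction.

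**Figure D1:**
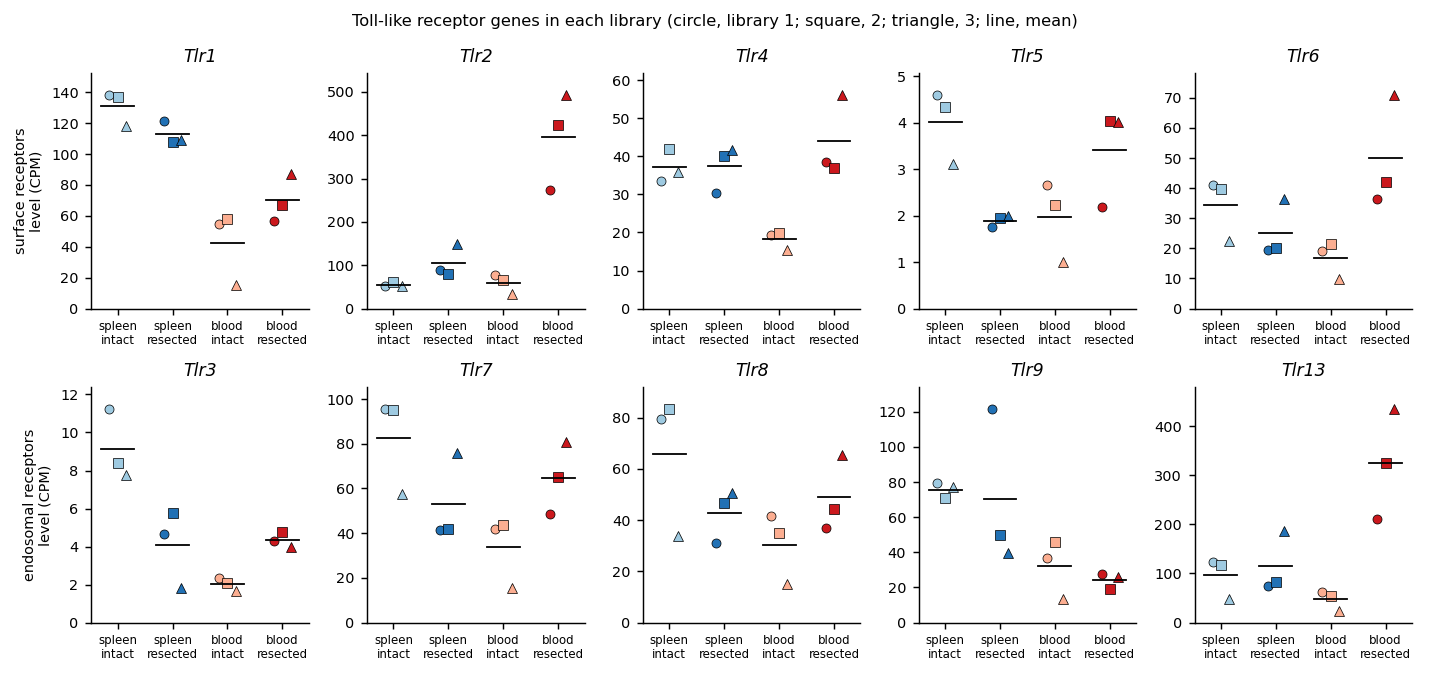
Level of each Toll-like receptor gene in CPM (linear vertical axes from 0, a different range for each gene) in the 3 libraries of the 4 groups, with a line at the group mean; surface receptors are in the upper and endosomal receptors in the lower row. Tlr2 (274 to 494 CPM) and Tlr13 (212 to 436 CPM) lie highest in blood after resection, and intact blood library 3 (pale triangle) is the lowest of its group in every panel.

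The second comparison addressed the same intervention in splenic monocytes. None of the 10 receptor genes was called with edgeR, beside 1.38% of all features, while 3 had an unadjusted p under 0.05 (Tlr2, Tlr3, Tlr5; 20.8% of all features) and DESeq2 called 1 of 10, Tlr3, as lower (log2 fold change -1.18, adjusted p = 0.0242), beside 7.77% of all features called by DESeq2. Without intact blood library 3 edgeR called 0 of 10, beside 4.87% of all features. The log2 fold change was negative for 7 of 10 and for 46.4% of all features, with a median of -0.33 beside 0.05 over all features. Tlr2 was at 52.4, 62.3 and 51.4 CPM in the intact state and at 89.7, 78.9 and 150 CPM after resection, without overlap, a log2 fold change of 0.94 (SE 0.35, edgeR adjusted p = 0.169).

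Tlr3 was at 11.3, 8.41 and 7.75 CPM in the intact state and at 4.65, 5.76 and 1.84 CPM after resection (log2 fold change -1.16, SE 0.38, edgeR adjusted p = 0.126). Tlr5 was at 4.61, 4.34 and 3.11 CPM and then at 1.75, 1.94 and 1.99 CPM (log2 fold change -1.08, SE 0.41, edgeR adjusted p = 0.166). For both genes each library after resection was below each intact one, so 1 receptor gene was higher and 2 were lower without overlap, where 17.4% and 17.7% of all features were. Tlr13 measured 123.1, 117 and 47.7 CPM in intact spleen and 73.6, 82.9 and 187 CPM after resection, with log2 fold change 0.26 (SE 0.51), so the spread within each group was wider than the difference between them.

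The remaining members overlapped between the states in the spleen. Tlr1 measured 138, 137 and 118 CPM and then 121, 108 and 109 CPM (log2 fold change -0.22, SE 0.40). Tlr4 was at 33.5, 41.9 and 36.0 CPM and then 30.4, 40.1 and 41.5 CPM, with a log2 fold change of 0.01 (SE 0.20) and an interval of 2 standard errors from -0.39 to 0.40. This was the narrowest interval among the receptor genes, and its sign changed with the scaling method. Tlr6 ranged from 22.5 to 40.9 CPM in intact spleen and from 19.3 to 36.3 CPM after resection (log2 fold change -0.44, SE 0.39). Tlr7 was at 95.7, 95.1 and 57.4 CPM and then 41.2, 42.0 and 75.6 CPM (-0.64, SE 0.40 on the log2 scale), and Tlr8 at 79.6, 83.6 and 33.9 CPM and then 30.9, 46.9 and 50.4 CPM (-0.62, SE 0.43). For both, intact library 3 was lower than libraries 1 and 2. Tlr9 spanned 70.8 to 79.2 CPM in intact spleen and 39.8 to 122 CPM after resection (log2 fold change -0.10, SE 0.47).

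Whether resection acted differently in the 2 tissues was tested as an interaction, the log2 fold change in blood minus that in spleen. The difference was positive for 9 of 10 receptor genes and for 44.1% of all features, but edgeR called 0 of 10, beside 0.283% of all features, while 7 had an unadjusted p under 0.05 (17.3% of all features) and DESeq2 called 6 (Tlr2, Tlr3, Tlr4, Tlr5, Tlr6, Tlr13), beside 5.78% of all features. The values were largest for Tlr13 (2.52, SE 0.73, edgeR adjusted p = 0.163), Tlr3 (2.24, SE 0.54, adjusted p = 0.117) and Tlr6 (2.01, SE 0.56, adjusted p = 0.157). Tlr5 (1.88, SE 0.57), Tlr2 (1.81, SE 0.50) and Tlr7 (1.59, SE 0.57) followed with edgeR adjusted p-values of 0.175, 0.157 and 0.219. Tlr4 had the smallest adjusted p-value at 0.0943 (difference 1.27, SE 0.28), and Tlr9 was the only member below 0 (-0.32, SE 0.66). Without intact blood library 3 the differences were 2.20 for Tlr13, 2.11 for Tlr3, 1.73 for Tlr6 and -0.69 for Tlr9, and edgeR called 0 of 10, beside 0.38% of all features.

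**Figure D2:**
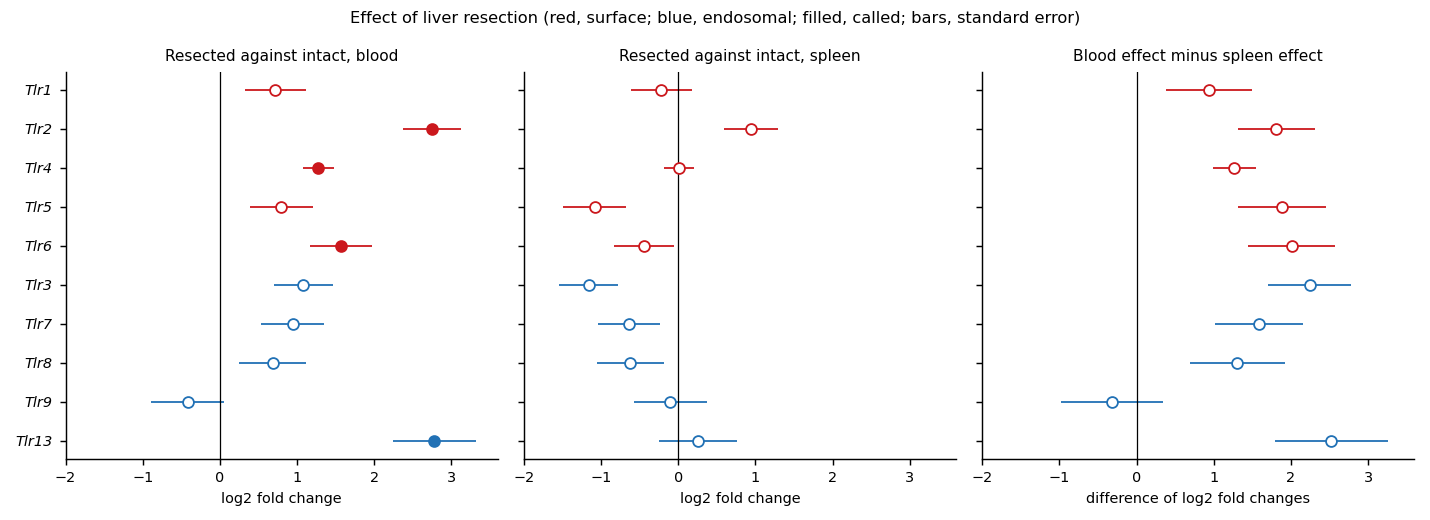
Log2 fold change after liver resection for each receptor gene (horizontal axis, points; bars show 1 standard error) in blood and in spleen, and the difference between them. Filled points mark the 4 genes called in blood (Tlr2, Tlr4, Tlr6, Tlr13); 0 were called in spleen or for the difference, where 9 of 10 points lie to the right of 0.

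In intact animals the receptor genes were mostly lower in blood than in splenic monocytes. Of the 10 genes 3 were called, all lower in blood (Tlr3, Tlr4, Tlr1), beside 7.35% of all features called and 3.49% called lower. DESeq2 also called 3, Tlr1, Tlr3 and Tlr7 (-1.21, adjusted p = 0.0318) but not Tlr4 (-0.96, under the limit), beside 12.8% of all features. The median log2 fold change was -1.07 beside -0.02 over all features, and 7 of 10 were lower without overlap, as were 20.9% of all features. Tlr3, at 1.68 to 2.37 CPM in blood and 7.75 to 11.3 CPM in spleen, differed most (log2 fold change -2.15, SE 0.39, edgeR adjusted p = 0.011). Tlr1, at 14.99 to 58.2 against 118 to 138 CPM, followed (-1.62, SE 0.41, edgeR adjusted p = 0.0363). Tlr4, at 15.4 to 19.9 against 33.5 to 41.9 CPM, had a log2 fold change of -1.03 (SE 0.20, edgeR adjusted p = 0.0137), close to the limit of 1.

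Without intact blood library 3, Tlr3 (-1.92, edgeR adjusted p = 0.0285) and Tlr1 (-1.11, adjusted p = 0.0066) were called, and Tlr4 was not (-0.82, adjusted p = 0.0434) because its fold fell under the limit, while 7.09% of all features were called. With intact spleen library 1 left out 0 of the 3 calls were made, and with any 1 of the other splenic libraries or any resected blood library left out Tlr3 was the 1 gene called. Of all features 531 of 21146 were called without intact spleen library 1, and 615 to 1465 without any 1 of those other libraries. Tlr7 (-1.30), Tlr9 (-1.23), Tlr8 (-1.11), Tlr5, Tlr6 and Tlr13 (-1.03 each) were lower in blood with edgeR adjusted p-values from 0.077 to 0.244. Tlr2 alone had no lower level in blood, at 32.8 to 78.2 CPM against 51.4 to 62.3 CPM (log2 fold change 0.09, SE 0.35, interval of 2 standard errors from -0.61 to 0.79).

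After resection the order of the tissues was different for several genes. Tlr2 was called higher in blood, at 274 to 494 CPM against 78.9 to 150 CPM in spleen (log2 fold change 1.90, SE 0.36, edgeR adjusted p = 0.00702), and Tlr9 was called lower, at 19.0 to 27.5 against 39.8 to 122 CPM (-1.55, SE 0.48, adjusted p = 0.0485), where 13.2% of all features were called, 6.28% higher and 6.87% lower. The Tlr9 call was lost in most alternatives and had a log2 fold change of -0.80 (adjusted p = 0.242) without spleen library 1 after resection, in which Tlr9 stood at 122 CPM beside 49.9 and 39.8 CPM. Tlr13 (1.499, SE 0.52, edgeR adjusted p = 0.0696) and Tlr6 (0.98, SE 0.40, adjusted p = 0.111) were higher in blood without overlap and passed the test when spleen library 3 after resection was left out (2.15 and 1.44, adjusted p = 0.0279 and 0.0481) or intact blood library 3 (1.60 and 1.08). DESeq2 called both as well (1.61 and 1.097), with 4 of 10 called beside 18.0% of all features, and without intact blood library 3 edgeR called 17.2% of all features. Libraries were separate for 4 genes higher in blood (Tlr2, Tlr5, Tlr6, Tlr13) and 2 lower (Tlr1, Tlr9), where 17.2% and 25.1% of all features were. The 4 groups enter these comparisons and the resection effects alike, so their values are not independent of one another.

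Levels were compared between genes per kilobase of the principal transcript. In intact spleen Tlr1 led with 43.4 ± 3.7 CPM per kb (SD, n = 3), ahead of Tlr13 with 23.6 ± 10.3, Tlr9 with 21.8 ± 1.2 and Tlr7 with 21.2 ± 5.6. The last 3 did not differ beyond their spread. In blood after resection Tlr2 led with 132 ± 37.2 CPM per kb, followed by Tlr13 with 79.8 ± 27.6 and Tlr1 with 23.2 ± 5.1. Tlr5 and Tlr3 were the lowest members in each group, with group means of 0.466 to 2.07 CPM per kb. The sum over the 10 genes was 104, 101 and 41.1 CPM per kb in intact blood and 214, 301 and 382 CPM per kb after resection. In spleen it was 169 ± 32.0 CPM per kb in the intact state and 165 ± 30.8 after resection.

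As a share of this sum, which does not depend on the library scaling, the surface receptors made up 52.1% to 54.9% in intact blood and 59.3% to 61.3% after resection (exact two-sided permutation p = 0.1, the smallest that 3 against 3 libraries allow). Intact blood library 3 had the highest surface share of its group, 54.9% beside 52.1% and 52.5%. The share of Tlr2 was 21.8% to 26.5% in intact blood and 42.5% to 46.7% after resection, and that of Tlr13 was 13.3% to 14.9% and 24.4% to 28.1%. The share of Tlr1 was 12.05% to 19.0% and then 7.34% to 8.76%. Tlr4 went from 4.52% to 9.20% in intact blood to 3.02% to 4.42% after resection. For Tlr5 the shares were 0.69% to 0.80% and then 0.32% to 0.42%, and for Tlr6 5.01% to 6.46% and then 3.81% to 5.05%. Among the surface receptors Tlr2 alone thus took a larger share in blood after resection, and the larger surface share came with that gene. In spleen the Tlr2 share was 9.28% to 12.9% in the intact state and 18.9% to 25.05% after resection, also without overlap (exact two-sided permutation p = 0.1). The surface share in spleen overlapped between the states, at 44.8% to 54.5% and 53.0% to 56.2% (exact two-sided permutation p = 0.3).

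**Figure D3:**
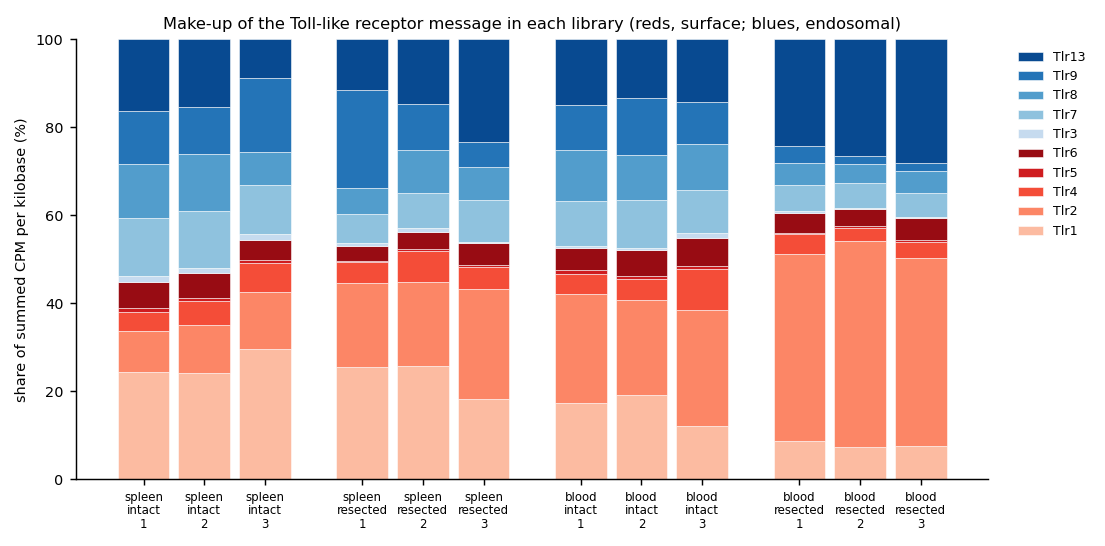
Share of each receptor gene (percent, stacked bars) in the summed CPM per kilobase of the 10 genes for every library, with surface receptors in reds below and endosomal receptors in blues above. Tlr2 takes 42.5% to 46.7% of the sum in blood after resection, more than in any other group.

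Markers of other cells moved with some of these genes. After resection in blood all 13 neutrophil markers were called higher (10 of 13 without intact library 3), with summed levels of 164 to 612 CPM in intact blood and 4361 to 21776 CPM after resection. In spleen 2 of the 13 were called higher with edgeR (5 without intact blood library 3) and 10 with DESeq2, with sums of 1409 to 2489 CPM in the intact state and 5841 to 16123 CPM after resection. None of these markers was at 3 counts or fewer throughout a group. Blood library 3 after resection had the highest neutrophil sum of its group. Its peritoneal macrophage sum was also the highest (33169 CPM beside 22903 and 27775 CPM). The same library had the highest Tlr1, Tlr2, Tlr4, Tlr6, Tlr7, Tlr8 and Tlr13 of its group. Markers of peritoneal macrophages were called higher in blood for 9 of 10 genes (sums of 3825 to 7378 and then 22903 to 33169 CPM), and those of red pulp macrophages for 8 of 12 (262 to 767 and then 2011 to 2520 CPM). In spleen the red pulp sum also rose, from 1576 to 2444 CPM to 3048 to 6626 CPM, with 1 of 12 called by edgeR and 4 by DESeq2. Spic and Vcam1 of this list reached only 1.98 to 6.42 and 1.37 to 4.78 CPM in blood after resection. In spleen after resection they stood at 75.0 to 126 and 377 to 1572 CPM. The monocyte markers were divided, with 4 of 14 called higher and 2 lower, and 2 higher and 3 lower without intact library 3. Markers of T cells were called lower for 7 of 8 genes in blood (median log2 fold change -2.19, sums of 869 to 2357 and then 157 to 304 CPM), also without intact library 3, and 0 of 8 were called in spleen with edgeR and 4, all lower, with DESeq2. Of 6 NK-cell markers edgeR called 0 in either tissue, with medians of -2.09 in blood and -3.21 in spleen, while DESeq2 called 3 lower in blood and 5 lower in spleen. In blood edgeR called 3 of 7 plasma cell markers higher, 1 of 8 plasmacytoid dendritic cell markers lower and 0 of 7 erythroid ones, where DESeq2 and an unadjusted p under 0.05 also gave 0. In spleen edgeR called 0 of these 3 lists, while DESeq2 called 7 of 7 erythroid markers higher (sums of 711 to 3357 and then 7503 to 32686 CPM) and 2 of 8 plasmacytoid dendritic cell markers lower. The part of these cells in the increases of Tlr2, Tlr4, Tlr6 and Tlr13 was not tested.

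Tlr3 and Tlr9 followed other markers in part. In the group means Tlr3 was highest in intact spleen and lowest in intact blood, and so was Xcr1, a marker of cross-presenting dendritic cells. Xcr1 stood at 13.6, 6.97 and 9.56 CPM in intact spleen and 4.67, 7.58 and 0.615 CPM after resection, and at 1.16, 1.28 and 1.18 CPM in intact blood and 2.84, 4.04 and 5.40 CPM after resection. Spleen library 3 after resection was the lowest of its group for both genes. Blood library 3 after resection, however, was the highest of its group for Xcr1 and the lowest for Tlr3. Clec9a, which marks the same dendritic cells, did not follow Tlr3 in blood, at 3.44, 2.72 and 2.47 CPM in the intact state and 2.04, 3.13 and 0.957 CPM after resection. Over the whole list of 10 conventional dendritic cell markers the sums were 612 to 723, 288 to 623, 274 to 461 and 263 to 328 CPM in intact spleen, spleen after resection, intact blood and blood after resection, and edgeR called 0 of 10 after resection in either tissue (median log2 fold change -0.53 in blood and -0.84 in spleen). In blood 3 of these markers and in spleen 2 had an unadjusted p under 0.05, and DESeq2 called 1 higher (Xcr1) and 1 lower in blood and 1 lower in spleen. Tlr9 went with B-cell markers in part. Their sum over 12 genes was 6594 to 7547 CPM in intact spleen, 5717, 4209 and 1635 CPM in spleen after resection, 2349, 3327 and 718 CPM in intact blood and 2358, 1629 and 1001 CPM in blood after resection. The highest Tlr9 level, 122 CPM, was in spleen library 1 after resection, whose B-cell sum was below each intact spleen library. After resection in spleen the median log2 fold change of these markers was -0.82, and that of Tlr9 was -0.10. In blood the values were -0.52 and -0.42. EdgeR called 0 of the 12 after resection in either tissue, and DESeq2 called 1 lower in each. The part of dendritic cells and B cells in these values was not tested.

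**Figure D4:**
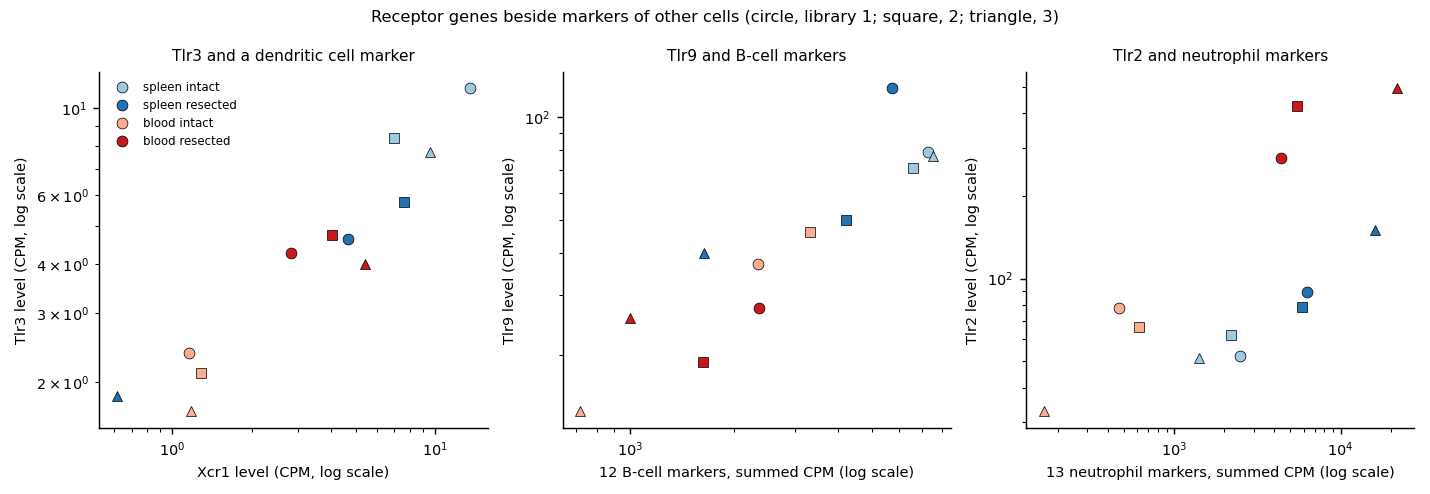
Levels of Tlr3, Tlr9 and Tlr2 (vertical, CPM on a log axis) against Xcr1, the sum of 12 B-cell markers and the sum of 13 neutrophil markers (horizontal, CPM on a log axis), with 1 point for each of 12 libraries. The highest Tlr3 level lies in the library with the highest Xcr1, which is 1 of 10 conventional dendritic cell markers. In blood after resection the library with the highest Xcr1 (5.40 CPM) has the lowest Tlr3 (3.997 CPM). Clec9a, another marker of this list that is not drawn, did not follow Tlr3 in blood. The highest Tlr9 level (122 CPM) lies at a B-cell sum of 5717 CPM, below the sums of intact spleen. After resection Tlr2 lies at 78.9 to 150 CPM in spleen (neutrophil sums of 5841 to 16123 CPM). In blood after resection it lies at 274 to 494 CPM (neutrophil sums of 4361 to 21776 CPM). The part of these cells in the receptor levels was not tested.

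The other genes of the pathway were grouped by role in lists of 55 genes, of which 54 were tested. After resection in blood 14 were called higher and 0 lower with edgeR, which is 25.9% of those tested beside 7.8% of all features called higher and 6.11% called lower. The median log2 fold change was 0.42 over these genes beside -0.10 over all features in blood, and -0.02 beside 0.05 in spleen. Without intact blood library 3 the numbers were 10 higher (18.5%) and 1 lower, Sigirr (1.85%), beside 12.2% of all features called. In spleen 2 were called, both higher (3.7%, beside 1.38% of all features called), and 5 without that library (9.26%, beside 4.87%). In the interaction of resection and tissue edgeR called 0, while 16 of 54 had an unadjusted p under 0.05 (29.6%, beside 17.3% of all features) and DESeq2 called 5 (9.26%, beside 5.78%), all with the larger log2 fold change in blood (Ctsb, Irak2, Lgmn, Ly96, Slc15a3).

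Of the proteins that deliver ligands, 3 of 6 tested rose in blood. They were Ly96, the MD-2 subunit of the TLR4 complex, at 1.93 ± 0.35 CPM in intact blood and 7.73 ± 1.18 CPM after resection (log2 fold change 2.00, SE 0.29, edgeR adjusted p = 0.00196), Lbp, the lipopolysaccharide-binding protein (5.47, SE 0.91, adjusted p = 0.00377), and Cd14, the coreceptor that hands lipopolysaccharide to it (3.07, SE 0.81, adjusted p = 0.0245). Cd14 was no longer called without intact blood library 3. In spleen Ly96 (0.40, edgeR adjusted p = 0.448) and Cd14 (1.39, adjusted p = 0.334) did not pass the test. Lbp was not called there with edgeR and all libraries, but was called higher with DESeq2 and with edgeR without intact blood library 3. Of the factors for receptor transport and processing 5 of 10 rose in blood, 4 of them proteases of endosomes, Lgmn (2.53), Ctsb (2.08), Ctsl (4.02) and Ctss, together with the peptide transporter gene Slc15a3 (3.41). Ctss is also among the monocyte markers, and it was not called without intact library 3. Lgmn (1.21, SE 0.24, edgeR adjusted p = 0.0416) and Ctsb (1.09, SE 0.22, adjusted p = 0.042) were the 2 genes called in spleen. Unc93b1, the chaperone that carries the endosomal receptors from the endoplasmic reticulum, did not pass the test in blood (0.44, SE 0.35, edgeR adjusted p = 0.393) or in spleen (-0.53, SE 0.35, adjusted p = 0.42).

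Of the adaptors 2 of 6 rose in blood, Myd88 (log2 fold change 1.82, SE 0.38, edgeR adjusted p = 0.00974) and Tirap, which brings MyD88 to TLR2 and TLR4 (1.71, SE 0.50, adjusted p = 0.0378). Of 18 kinases and ligases Irak2 alone was called (1.99, SE 0.43, edgeR adjusted p = 0.0108), and of 4 interferon regulatory factors none was, while 1 of them was lower at an unadjusted p under 0.05 and DESeq2 called 0. Of the 10 inhibitors 3 rose, Irak3, which blocks the release of IRAK kinases (2.70, SE 0.71, edgeR adjusted p = 0.0241), Tnip1 (1.86) and Zc3h12a, an RNase that degrades cytokine mRNA (1.55). Irak3 and Tirap were not called without intact blood library 3. Between the tissues in intact animals Lgmn (-1.12), Btk (-1.40) and Irf8 (-1.58) were called lower in blood, and the inhibitors Tnfaip3 (1.67) and Socs1 (1.09) higher. Of the 54 tested this was 5.56% lower and 3.7% higher. Of all features 3.49% were called lower and 7.35% in either direction. After resection Cd36 (1.12), Ctsl (3.00), Tnip1 (1.54) and Socs1 (1.36) were called higher in blood than in spleen, and 0 lower. These 4 were 7.41% of the 54 tested, beside 6.28% of all features called higher. They became 10 higher (18.5%) and 1 lower (1.85%) without intact blood library 3, beside 17.2% of all features called. With DESeq2 they became 12 higher and 1 lower (24.1%, beside 18.0% of all features called).

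The genes most like each receptor were sought among 10395 genes with a mean of at least 5 CPM, by the Pearson correlation of log2 CPM over the 12 libraries, which fall into 4 groups that drive it in part. Tlr2 was most like Sgk1 (0.986) and Rab5c (0.985), and Tlr13 most like Man2a1 (0.986) and Ms4a6d (0.983). Tlr1 was most like A530032D15Rik (0.987) and Gcnt1 (0.985). Tlr8 was most like its neighbor Tlr7 (0.933), the 1 pair of receptor genes in which either was among the nearest, and Tlr7 most like Soat1 (0.954) and Napsa (0.938). Tlr9 was most like Mast4 (0.971) and Vav2 (0.963), and Tlr3 most like Aldh7a1 (0.923) and Tasl (0.905). For Tlr4, Tlr6 and Tlr5 the nearest genes were F630028O10Rik and Kcnj2 (0.953 each), Il15ra (0.968) and Slc28a2 (0.964), and Vamp4 (0.882) and Dleu2 (0.881). Correlations between Tlr2 and Tlr13 (0.904) and between Tlr6 and Tlr13 (0.925) were among the higher ones within the family, and Tlr9 with Tlr2 was at -0.38.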

How the data were processed

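RNA-seq libraries of CD115+ monocytes were grouped by their labels. The values deposited by the authors were estimated counts, 1 file for each library, not scaled to depth or length. STAR and mouse build GRCm39 are named in the submitters' processing notes, and the counting tool is not given in the sources used here. Rows without a gene, 1.75% to 4.33% of a library, were left out. Entries were summed per gene symbol through RefSeq names (GRCm38.p6), and 14934 accessions stayed unmatched. Sums were rounded and tested with edgeR 4.0.16 in R 4.3.3 (filterByExpr, TMM, robust quasi-likelihood fit over 12 libraries and 4 groups, no covariate, two-sided, Benjamini-Hochberg over 20135 features, called at adjusted p under 0.05 with a log2 fold change beyond 1 either way). As standard error served the absolute log2 fold change divided by the square root of F. Each library was 1 replicate of 5 pooled mice. The steps were tested on simulated data. DESeq2 1.42.0, RLE factors, other filters, entries as deposited, hemoglobin genes left out, only the groups compared, the replicate block and each library left out were alternatives. Lengths and positions are from the GENCODE annotation of GRCm38. Named genes were the receptors with Tlr11 and Tlr12, called pathway genes (at most 4 per list by p-value, with Cd14, Ly96, Unc93b1, Myd88 and Irak3 always), the 2 most correlated genes of each receptor, and marker genes, while Sigirr and Ctss were named after their values were seen. The receptors, lists and tests were chosen with earlier results of these data known. Marker lists covered monocytes, neutrophils, B, T, NK and plasma cells, plasmacytoid and conventional dendritic cells, red pulp and peritoneal macrophages and erythroid cells.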

Additional observations from a re-analysis of the deposited data

Results flagged for a closer look

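Tlr3 was the 1 receptor gene whose libraries separated in opposite directions in the 2 tissues. After resection it was lower in spleen, at 7.75 to 11.3 CPM in the intact state and 1.84 to 5.76 CPM after it, and higher in blood, at 1.68 to 2.37 and then 3.997 to 4.76 CPM. The difference of the log2 fold changes, blood minus spleen, was 2.24 (SE 0.54), with an edgeR adjusted p = 0.117 and an unadjusted p of 0.00194. DESeq2 called this difference (2.28, adjusted p = 0.00197). Its estimated counts ran from 75 to 535 per library. Xcr1 moved the same way in the group means of both tissues, while Clec9a, a marker of the same dendritic cells, was lower after resection in the means of both, as were the 10 conventional dendritic cell markers by their median log2 fold change (-0.53 in blood and -0.84 in spleen). Their part in the Tlr3 values was not tested.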

How the results depend on the processing

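The alternatives were planned, apart from the sums of Tlr4 with its accession and of Tlr1 with Tlr6 and the counts over pathway and marker lists by DESeq2 or without intact blood library 3, which were chosen after seeing the data. The number of receptor genes called after resection in blood was 3 to 5 in every alternative (3 to 5 with 1 library left out in turn), and Tlr2, Tlr4 and Tlr13 were called in each. Of all features 1590 of 17553 were called with only the groups compared, the lowest number. The highest was 4242 of 20135, with no limit on the fold change. After resection in spleen the number of receptor genes called was 0, and 1 with DESeq2 (0 to 0 with libraries left out). Features called ran from 1 of 21146 without intact spleen library 1 to 1564 of 20135 with DESeq2. In intact animals 3 receptor genes called became 1 without a low-count filter and 1 with entries as deposited (0 to 2 with libraries left out). Features called were 1480 of 20135 in the main test, 1080 of 32952 without the filter and 1295 of 22223 with entries as deposited. With libraries left out they ran from 531 of 21146 to 1494 of 21062. Between the tissues after resection 2 receptor genes called became 4 with DESeq2, and 1 with no low-count filter, with RLE size factors, with hemoglobin genes left out, with entries as deposited and with only the groups compared (1 to 4 with libraries left out). In the same order, features called were 3627 of 20135, 2102 of 32952, 2562 of 20135, 2550 of 20268, 2472 of 22223 and 2659 of 18055. The main test called 2648 of 20135, and 1450 to 3625 were called with libraries left out. For the difference of the resection effect 0 receptor genes called became 6 with DESeq2 (0 to 0 with libraries left out). Features called were 57 of 20135 in the main test, 1163 with DESeq2 and 5 to 93 with libraries left out. The cause was not tested.

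The replicate numbers were also entered as a block. Correlations of same-numbered libraries ran from -0.05 to 0.19, 2 of 18 were over 0.1 and in 9 of 18 pairs of libraries the own number matched best. The 2 over 0.1 were among the 3 pairs of spleen and blood after resection (0.042, 0.13 and 0.19), all of which matched their own number best, but no pair of groups had all 3 over 0.1, so the numbers were not taken to pair the samples. With the replicate block 3 receptor genes were called in blood, 0 in spleen, 2 in intact animals, 1 between the tissues after resection and 0 for the difference, with Tlr6 (adjusted p = 0.0537), Tlr1 (adjusted p = 0.0572) and Tlr9 (adjusted p = 0.0678) no longer called. Of 20135 features this fit called 2168, 150, 1162, 2257 and 1 in the same order.

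Of the single values, the Tlr4 log2 fold change in spleen turned to -0.0105 without a low-count filter, to -0.00857 with DESeq2, to -0.00857 with RLE factors and to -0.00053 with entries as deposited. With libraries left out in turn it ran from -0.074 to 0.14, that of Tlr13 in spleen from -0.29 to 0.49 and that of Tlr9 from -0.75 to 0.18. Tlr2 in intact animals ran from -0.10 to 0.49, Tlr3 between the tissues after resection from -0.16 to 0.52, and the Tlr9 difference from -0.69 to 0.33. Leaving out hemoglobin genes moved the median of all features by 0.12 in both comparisons of blood with spleen. Of the other alternatives to single values 495 gave the same direction and call, 13 added and 18 lost a call. With 1 library left out in turn 543 gave the same direction and call, 5 added a call, 35 lost a call and 17 changed sign.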

Other observations

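The remaining mouse members Tlr11 and Tlr12, endosomal receptors for the parasite protein profilin, were low and lowest in blood. Tlr11 stood at 21.0, 11.9 and 11.6 CPM in intact spleen and 3.01, 6.004 and 0.442 CPM after resection, and at 1.98, 2.24 and 1.05 CPM in intact blood and 0.641, 0.272 and 0.141 CPM after resection. It was called lower in blood than in spleen with edgeR, in intact animals (log2 fold change -3.08, SE 0.84, adjusted p = 0.0481) and after resection (-3.16, SE 0.86, adjusted p = 0.0309). After resection the libraries of the tissues overlapped, with only 5 to 21 counts in blood and 18 to 275 in spleen. Without intact blood library 3 the call in intact animals was lost (-2.71, adjusted p = 0.121) and that after resection was made (-3.06, adjusted p = 0.0289). After resection it was below each intact library in both tissues, with log2 fold changes of -2.31 in blood (edgeR adjusted p = 0.0777) and -2.23 in spleen (adjusted p = 0.157), and DESeq2 called it lower in both (-2.31, adjusted p = 0.0205, and -2.25, adjusted p = 0.0342). Tlr12 stood at 4.57 to 6.97 CPM in intact spleen, 1.33 to 4.19 CPM in spleen after resection, 0.83 to 2.83 CPM in intact blood and 0.563 to 1.15 CPM in blood after resection, and edgeR with all libraries called it in 0 comparisons. It was called lower in blood than in spleen after resection with DESeq2 (-1.51, adjusted p = 0.0378) and with edgeR without intact blood library 3 (-1.52, adjusted p = 0.0323), and without that library also lower after resection in blood (-1.72, adjusted p = 0.0344). Clec9a, a marker of cross-presenting dendritic cells, was at 20.4, 10.3 and 11.2 CPM in intact spleen, 5.49, 7.38 and 0.467 CPM in spleen after resection, 2.47 to 3.44 CPM in intact blood and 0.957 to 3.13 CPM in blood after resection. Xcr1, a marker of the same cells, went the other way from Tlr11 in blood. It was at 1.16 to 1.28 CPM in intact blood and 2.84 to 5.40 CPM after resection. The part of these cells in the Tlr11 values was not tested.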
